A study of Mus musculus with 2 samples.

Results

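The EGF receptor family and its ligands were followed through the hair follicle (HF) lineages as 8 genes, chosen by their symbols in the gene lists of the count matrices, out of 32285 listed genes. They were the receptors Egfr, Erbb2, Erbb3 and Erbb4 and the ligands Areg (amphiregulin), Btc (betacellulin), Tgfa (transforming growth factor alpha) and Hbegf (heparin-binding EGF-like growth factor). Single-cell RNA sequencing was performed on tdTomato-positive cells sorted from the dermal fraction of the back skin of mice at P1, giving 2 libraries of batch 1. One carries the genotype label WT and the other the label PADI4 cKO, and they are called the WT library and the cKO-labelled library. The mice carried K14-Cre, which is active in keratin 14 expressing epithelial cells and their progeny, and a tdTomato reporter. The PADI4 cKO mice also carried Padi4 fl/fl, although the protocol text names Padi4 fl/fl for both libraries. The sources used here do not give the number of animals in each library.

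EGF receptors are membrane tyrosine kinases that pair with one another once a ligand is bound. EGFR binds amphiregulin, TGF-alpha, betacellulin and HB-EGF, ERBB2 has no ligand of its own and acts as a partner, ERBB3 has little kinase activity and signals within pairs, and ERBB4 binds neuregulins, betacellulin and HB-EGF. The ligands are made as membrane-bound precursors and cut free by proteases. In skin, EGFR and TGF-alpha are best known for wavy hair in mice with mutations in their genes.

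The cell filters left 8069 cells of the WT library and 7394 of the cKO-labelled library, with medians of 14670 and 16208 unique molecular identifiers (UMIs), each UMI standing for 1 captured mRNA molecule. Of these, 8006 and 7348 were epithelial. Cells were placed in 10 classes by lists of marker genes that held no receptor, ligand or pathway gene. The classes were the inner root sheath (IRS), cortex (Cx), medulla (Med), companion layer (CL), upper HF (uHF), interfollicular epidermis (IFE), sebaceous gland (SG), germinative layer (GL), lower proximal cup (LPC) and outer root sheath (ORS), and each is called -like since it rests on marker genes. Class sizes ran from 81 to 1187 cells a library, and 57.1% of the epithelial cells in the WT library and 52.2% in the other passed no gate. Between 8.50% (IRS-like) and 31.9% (IFE-like) of the cells of a class lay within 0.1 of the gate. Every class carried at least 3 raised markers of its own, but neighboring layers shared genes, and the GL list had a median summed level of 4061 CPM (UMIs per 1000000 UMIs) in Cx-like and 3919 CPM in Med-like cells against 4348 CPM in GL-like cells. The ORS list stood at 4226 CPM in IFE-like and 2337 CPM in uHF-like cells against 4644 CPM in ORS-like cells.

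Padi4 itself did not separate the libraries, with 97 UMIs in the WT epithelial cells and 90 in the cKO-labelled library (0.760 and 0.696 CPM). Reads from the 3′ end of a transcript cannot show whether the floxed part is present. The libraries also differed in sex, since 26.8% of the WT epithelial cells had UMIs of Xist and none of 3 Y-linked genes and 59.6% the opposite, against 99.7% and 0.0% in the other library. Only 14 cell barcodes were found in both. Each genotype has a single library, so no test across animals could be run. All intervals are exact 95% intervals for counting error, and a difference between classes or libraries is given with its counting interval only. UMIs of Erbb4, Areg and Hbegf sat in few cells, so that counting intervals are too narrow for them. For the other genes too, the intervals take each UMI as independent and leave out the spread between cells. Egfr had up to 89 UMIs in a Cx-like cell of the cKO-labelled library, against a mean of 17.9 in cells with UMIs.

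Egfr was detected in nearly all cells. Epithelial cells had an Egfr UMI in 93.4% of cases in the WT library and in 94.4% in the cKO-labelled one, against 40.7% of 27 and 61.5% of 13 fibroblast-like cells (medians of 9692 and 16250 UMIs). The level was graded across the follicle. It was highest in the 2 hair shaft classes, with 963 CPM (932 to 995) in WT Med-like cells and 758 CPM (735 to 782) in Cx-like cells. In the cKO-labelled library the order of these classes turned, with 775 CPM (750 to 800) in Med-like and 872 CPM (845 to 899) in Cx-like cells. GL-like cells, the progenitors of these lineages, followed with 683 and 636 CPM. This place of GL-like cells depends on how the classes are formed. With classes from Leiden clusters, in which no Cx-like or Med-like class had at least 50 cells a library, LPC-like cells were highest in both libraries. The 2 clusters named GL-like, led by Pcsk2 and Kit and by Myb and Mt1, then held 397 and 428 CPM and 395 and 396 CPM, and the 2 LPC-like clusters, led by Frem1 and Mme and by Phactr1 and Slit3, 318 and 348 CPM and 549 and 529 CPM. Clusters with markers of several classes took no name and were left out of these classes. GL-like was the most common gate result in those led by Cldn10 and Prr5l (47.4% of cells) and by Ednra and Gpnmb (39.4%). They held 686 and 1266 CPM in the WT library. The cluster led by Krt35 and Dsg4, with 70.0% Cx-like cells, was also left out.

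The other 7 classes lay lower. CL-like cells held 469 CPM in the WT library and 509 CPM in the other, ORS-like cells 455 and 437 CPM, uHF-like cells 379 and 358 CPM, LPC-like cells 350 and 369 CPM, and IFE-like cells 327 and 340 CPM. The lowest levels were found in IRS-like cells (286 and 308 CPM) and SG-like cells (283 and 272 CPM). From the top to the bottom of this order the level changed 3.40-fold in the WT library and 3.20-fold in the other. Of the 9 pairs of neighbors in the order, 6 differed beyond counting error in each library, and CL-like and ORS-like, LPC-like and IFE-like, and IRS-like and SG-like cells did not in the WT library. Cx-like, Med-like and GL-like cells lay above the other epithelial cells in both libraries, and IRS-like, uHF-like, IFE-like, SG-like, LPC-like and ORS-like cells lay below them in both.

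**Figure D1:**
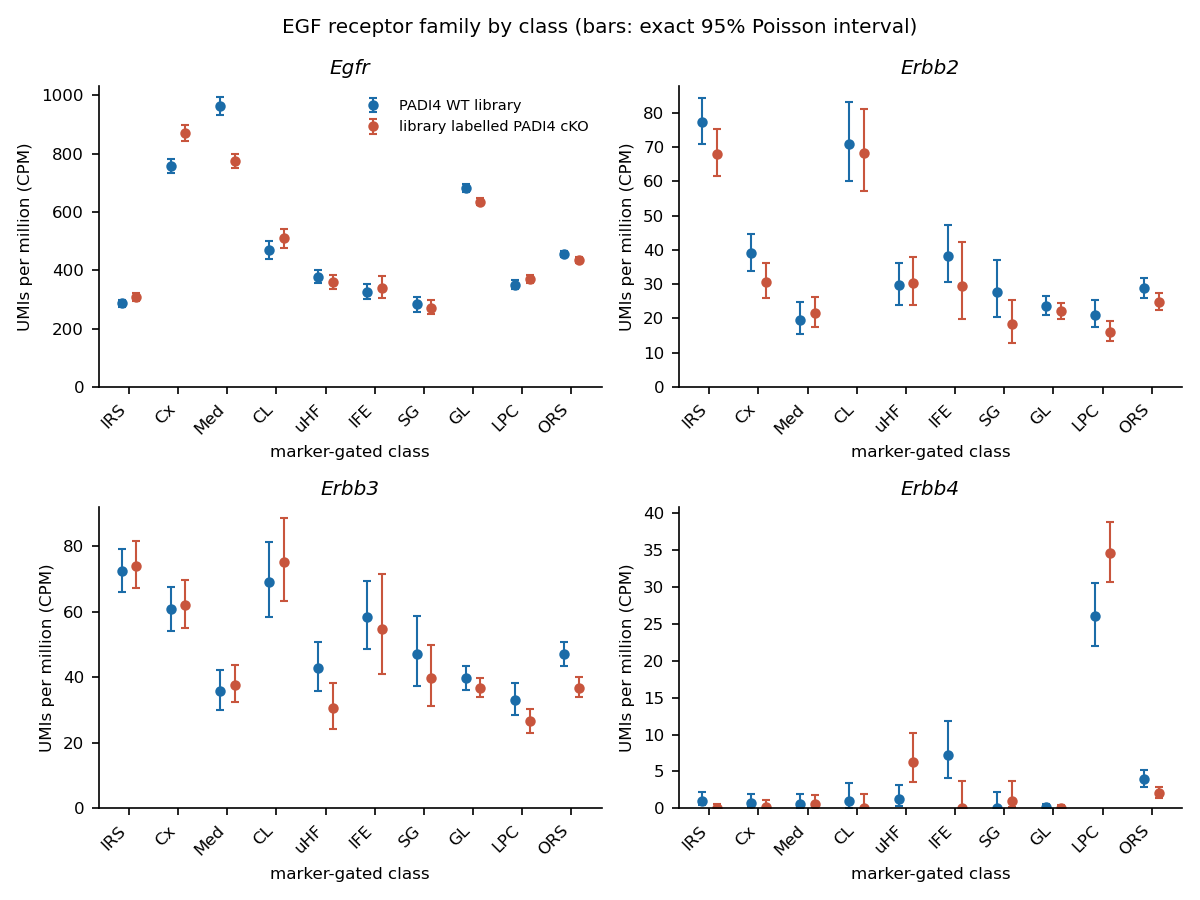
Levels of the 4 receptors in CPM (linear axes from 0) in the 10 marker-gated classes, with 1 point per library and bars for the exact 95% Poisson interval. Egfr was highest in Med and Cx, Erbb2 and Erbb3 in IRS and CL, and Erbb4 in LPC, where it reached 26.0 and 34.5 CPM.

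Leiden clusters were formed over all cells, those that passed a gate and those that did not, without the receptors, ligands and pathway genes. They are named here by their leading genes. The cluster led by Ednra and Gpnmb, with Krtap8-1 among its 10 leading genes, had the highest Egfr level of 20 clusters, 1266 CPM in 294 WT cells and 1293 CPM in 193 cells of the cKO-labelled library. GL-like was the most common gate result in it, with 39.4% of its cells. Here the libraries did not differ as they did in the gated Med-like cells. Of the 6 melanocyte markers, 2 were over 1.5 times higher in this cluster than elsewhere, yet the summed level of the list was 106 CPM there and 119 CPM elsewhere, and the part of other cell types in the Egfr level was not tested. A cluster led by the contractile genes Tagln and Myl9, in which 89.3% of the cells passed no gate, had 749 and 713 CPM. The lowest level, 233 and 229 CPM, was found in the cluster led by Far2 and Soat1.

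Erbb2 and Erbb3 had a different pattern, which both shared. Erbb2, the partner receptor, reached 77.3 CPM (70.8 to 84.2) in WT IRS-like cells and 71.0 CPM (60.1 to 83.2) in CL-like cells. The corresponding levels in the cKO-labelled library were 68.1 CPM (61.5 to 75.2) and 68.3 CPM (57.1 to 81.1). These 2 classes could not be told apart by counting error in either library, whereas the step down to Cx-like cells (39.0 and 30.7 CPM) exceeded it in both. At the other end, Erbb2 was at 19.6 and 21.5 CPM in Med-like cells, 23.6 and 22.1 CPM in GL-like cells and 21.1 and 16.2 CPM in LPC-like cells. These classes thus fell below the other epithelial cells in both libraries. The remaining classes ranged from 18.3 CPM (SG-like, cKO-labelled library) to 38.3 CPM (IFE-like, WT). IRS-like cells held 2.66-fold and 2.67-fold the level of all other epithelial cells.

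Erbb3, the kinase-poor receptor, was likewise highest in IRS-like cells, with 72.3 CPM (66.0 to 79.1) and 74.1 CPM (67.2 to 81.6), and in CL-like cells, with 69.1 CPM (58.4 to 81.2) and 75.2 CPM (63.4 to 88.6). Unlike Erbb2, it stayed high in Cx-like cells (60.7 and 62.0 CPM) and IFE-like cells (58.3 and 54.7 CPM). It was lowest in LPC-like cells, at 33.2 and 26.6 CPM. Its range over the classes was narrower, 2.18-fold in the WT library and 2.83-fold in the other, and no neighbors in the order differed beyond counting error in the former, while 1 pair did (IRS-like and Cx-like) in the latter. Both genes peaked in the same cluster, led by Krt75 and Wnt11, with 87.2 and 87.1 CPM for Erbb2 and 86.7 and 85.6 CPM for Erbb3 in 118 cells of each library. Across the 20 class levels of both libraries, Pearson's r on log2(CPM + 1) between Erbb2 and Erbb3 was 0.88. The points are classes within 2 libraries and share their depth, and the value is a description only.

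Erbb4, a neuregulin receptor, was highest in one class by a wide margin. In LPC-like cells, at the follicle base, it reached 26.0 CPM (22.0 to 30.5) in the WT library and 34.5 CPM (30.6 to 38.8) in the other, 13.2-fold and 11.2-fold the level of the other epithelial cells. LPC-like cells thereby held 38.2% and 43.0% of all Erbb4 UMIs with only 4.49% and 6.32% of all UMIs. Cells that passed no gate held 38.7% and 48.3% of the Erbb4 UMIs, with 55.7% and 51.1% of all UMIs. GL-like cells, the neighboring progenitors, had 0.161 CPM (0.0195 to 0.581) and 0.121 CPM (0.0147 to 0.438), from 2 UMIs in each library. Against the lowest class, which held 0 UMIs in either library, the LPC-like level was at least 14.4-fold (SG-like, WT) and at least 11.4-fold (IFE-like, cKO-labelled library) higher, with 3 UMIs per library as the limit for a count of 0. Counts of 0 were also found in IRS-like and CL-like cells of the cKO-labelled library, which allow up to 0.531 and 1.58 CPM.

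Few cells carried the Erbb4 signal. UMIs were detected in 11.0% of LPC-like cells in the WT library and 15.7% in the other, against 0.321% and 0.134% of GL-like cells (median depths 19286 and 21110 UMIs in LPC-like and 18440 and 20932 in GL-like cells). In fibroblast-like cells, 2 of 27 and 0 of 13 had an Erbb4 UMI (7.41% and 0.0%), and in melanocyte-like cells 6 of 36 and 1 of 33 (16.7% and 3.03%). The share in LPC-like cells thus lay above that of GL-like cells of like depth, but within the counting intervals of these few non-epithelial cells in both libraries. The LPC-like cells that had UMIs held means of 5.14 and 5.22 UMIs each, up to 20 and 26. Of the cells with at least 5 UMIs, 17 of 26 and 28 of 46 fell in the cluster led by Frem1 and Mme. In 1 cell of the WT IFE-like class, 11 of its 16 UMIs were found. Free RNA, estimated from collagen and hemoglobin genes at no more than 7.84% and 6.68% of the UMIs, could give up to 2.06 and 1.76 CPM, so that levels at or below this, as in IRS-like, Cx-like, Med-like, CL-like, SG-like and GL-like cells and in the WT uHF-like cells, are read as background. The gene spans 1076 kb of chromosome 1 (positions 68032186 to 69108059, minus strand, GRCm38) and overlaps 8 shorter annotated genes on the same strand. Whether intronic reads were counted is not given in the sources used here.

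Among the ligands, Areg, an EGFR ligand, was highest in the classes with high Erbb2 and Erbb3. In IRS-like cells it was found at 21.4 CPM (143 UMIs) in the WT library and 13.8 CPM (78 UMIs) in the other. In CL-like cells the libraries were apart, at 31.5 CPM (24.4 to 40.0) from 67 UMIs and 6.31 CPM (3.26 to 11.0) from 12 UMIs. The former rests on 18 cells with UMIs, of which 1 held 22. Cells that passed no gate held 151 of the 464 and 165 of the 409 Areg UMIs, at 2.13 and 2.50 CPM. The levels of the other 8 classes lay at or below 6.64 CPM, and in ORS-like cells at 0.594 and 0.990 CPM. IRS-like and CL-like cells lay above and LPC-like and ORS-like cells below the other epithelial cells in both libraries. In the cluster led by Krt75 and Wnt11, which holds the same number of cells in both libraries, Areg stood at 33.8 CPM (26.3 to 42.8) and 23.2 CPM (16.9 to 31.0), so the libraries were closer there than in the gated CL-like cells. The cluster led by Krt73 and Krt71 came next with 15.9 and 12.1 CPM. Among IRS-like cells with an Areg UMI, 67 of 72 and 43 of 46 also had an Egfr UMI, shares of 93.1% and 93.5% that lie near the 89.8% and 90.7% of all IRS-like cells. Across the class levels, r was 0.71 between Areg and Erbb2 and 0.62 between Areg and Erbb3.

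Because Areg and Erbb2 were high in the same classes, the stretches before their starts are shown, taken from the RefSeq promoter table (GRCm38.p6), which had an entry for 6 of the 8 genes and none for Erbb3 and Hbegf. Both lie on the plus strand, Areg at chr5:91139349-91139598 and Erbb2 at chr11:98412234-98412469, and end just before the annotated gene. Capitals mark motifs found by search on both strands. These were the cyclic AMP response element TGACGTCA, the AP-1 site (TGAGTCA or TGACTCA), the TATA box TATAAA, the GC box GGGCGG and the CCAAT box CCAAT.
Areg: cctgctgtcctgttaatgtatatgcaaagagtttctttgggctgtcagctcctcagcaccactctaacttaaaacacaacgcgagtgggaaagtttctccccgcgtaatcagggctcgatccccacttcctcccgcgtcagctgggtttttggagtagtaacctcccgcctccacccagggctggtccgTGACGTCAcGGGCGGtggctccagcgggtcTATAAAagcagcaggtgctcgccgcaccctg
Erbb2: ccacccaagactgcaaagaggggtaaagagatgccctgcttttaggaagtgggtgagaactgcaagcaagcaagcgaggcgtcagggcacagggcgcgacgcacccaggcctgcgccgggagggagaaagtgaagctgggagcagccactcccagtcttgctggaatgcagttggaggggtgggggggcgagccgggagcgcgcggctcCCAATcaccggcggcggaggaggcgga
Counted from the end of its stretch, with -1 as the last base, Areg held TGACGTCA at -61, GGGCGG at -52 and TATAAA at -31, none of which overlap. The Erbb2 stretch, which stops short of the RefSeq start because the annotated gene begins before it, held only CCAAT, so no motif was shared by the 2 genes. Of 32851 promoter windows of 250 bases before the start, 1.55% held the cyclic AMP response element, 4.46% the AP-1 site, 12.4% the TATA box, 32.7% the GC box and 33.8% the CCAAT box. The same window of Egfr held 1 GC box and that of Tgfa 2, and those of Erbb4 and Btc held none of these motifs.

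Tgfa, the EGFR ligand tied to wavy hair, was highest in uHF-like cells. It reached 15.9 CPM (11.9 to 21.0) in WT uHF-like cells and 17.3 CPM (12.6 to 23.3) in the cKO-labelled library, 4.27-fold and 4.07-fold the level of the other epithelial cells. It was lowest in IRS-like cells at 1.20 and 1.77 CPM, a class where Areg was high, and low in GL-like cells at 2.33 and 2.18 CPM. These were the only classes below the other epithelial cells in both libraries. IFE-like cells had 5.01 CPM (2.50 to 8.96) in the WT library and 16.2 CPM (9.27 to 26.3) in the other, from 11 and 16 UMIs. The cluster led by Sema3a and Pparg (12.0 and 13.6 CPM) and that led by Adamtsl1 and Nkain2 (12.1 and 13.1 CPM) held the highest levels among the clusters, the former uHF-like and the latter ORS-like by its markers. The step from uHF-like cells to the next class, CL-like in the WT library and IFE-like in the other, was within counting error. Without the called doublets, IFE-like cells were the highest of the cKO-labelled library, and after thinning CL-like cells were the highest of the WT library.

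Hbegf was broader. It was highest in CL-like cells of both libraries, at 32.9 CPM (25.7 to 41.6) and 25.2 CPM (18.6 to 33.5), and lower in IRS-like cells (3.59 and 3.36 CPM) and SG-like cells (1.81 and 5.23 CPM) than in the other epithelial cells. Med-like cells held 18.3 CPM (14.2 to 23.2) in the WT library and 13.5 CPM (10.4 to 17.3) in the other, and Cx-like cells 12.3 CPM (9.46 to 15.6) and 21.8 CPM (17.8 to 26.5). Between CL-like and Med-like cells the step exceeded counting error in the WT library, but that between CL-like and Cx-like cells did not in the other. GL-like, LPC-like, ORS-like, uHF-like and IFE-like cells ranged from 5.91 to 15.2 CPM. High levels were also found among the Leiden clusters, which hold cells with and without a class. The cluster led by Tagln and Myl9 had 29.0 CPM (24.8 to 33.6) and 35.3 CPM (30.5 to 40.6), and the cluster with the highest Egfr level, led by Ednra and Gpnmb, had 23.3 CPM (19.1 to 28.2) and 44.8 CPM (37.8 to 52.8).

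Btc, a ligand of EGFR and ERBB4, was at the limit of detection. All epithelial cells together held 43 UMIs in the WT library and 25 in the other (0.337 and 0.193 CPM). CL-like cells were nominally highest with 2.35 CPM (0.763 to 5.48) and 1.05 CPM (0.127 to 3.80), from 5 and 2 UMIs. No neighbors in its order differed beyond counting error. Cx-like, Med-like and SG-like cells held 0 UMIs in both libraries, which allows up to 0.566 and 0.648 CPM in the Cx-like cells.

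**Figure D2:**
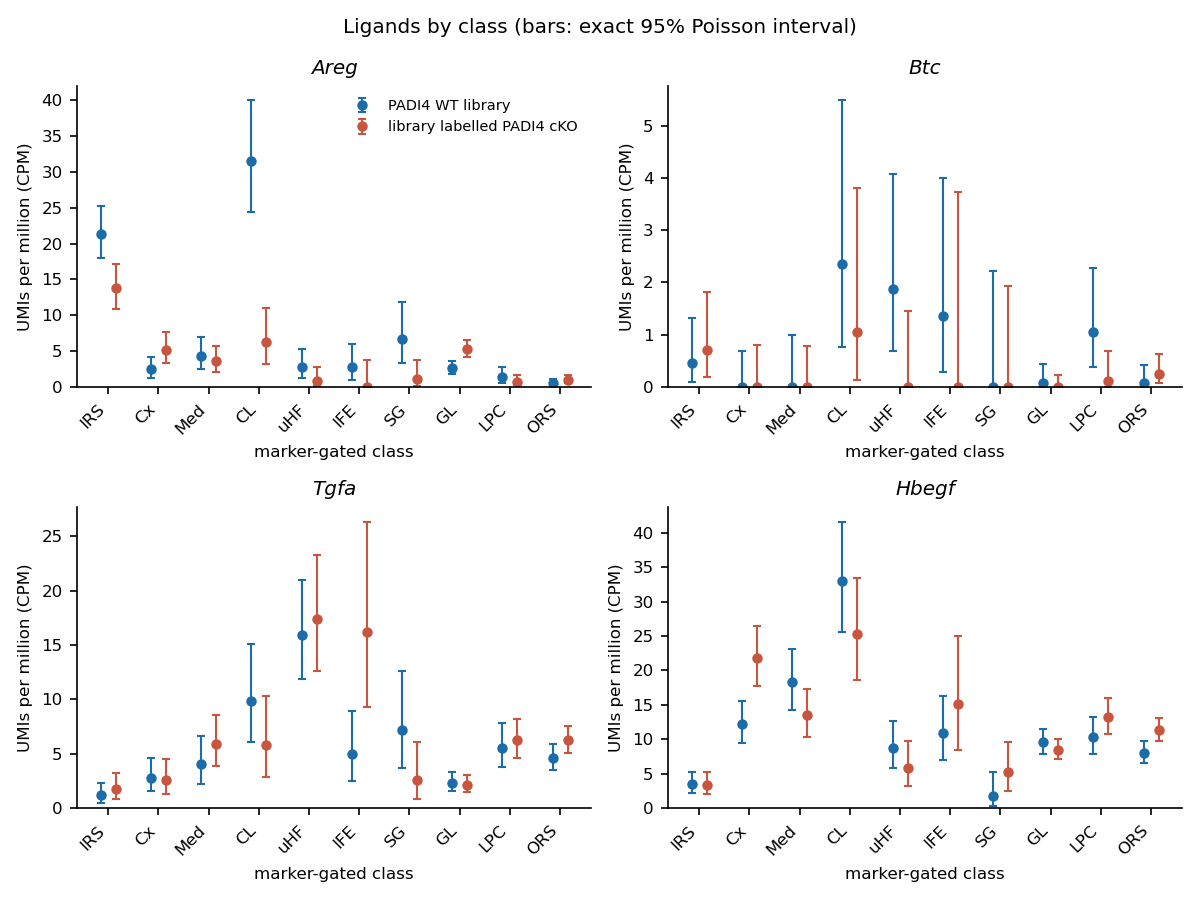
Levels of the 4 ligands in CPM (linear axes from 0) in the 10 marker-gated classes, with 1 point per library and bars for the exact 95% Poisson interval. Areg was highest in CL and IRS, Tgfa in uHF and Hbegf in CL, and Btc, with 43 and 25 UMIs in all, cannot be ordered. For Tgfa in both libraries and Hbegf in the cKO-labelled one, the step to the next class was within counting error.

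Read against all genes, 5 of the 7 receptors and ligands with at least 100 UMIs (Erbb2, Erbb4, Areg, Tgfa and Hbegf) had a class with at least a 2-fold higher level than the other epithelial cells in both libraries, against 26.9% of 14947 genes. Per class, this share of genes was 3.84% for IRS-like, 4.07% for Cx-like, 2.03% for Med-like, 5.23% for CL-like, 5.21% for uHF-like, 5.08% for IFE-like, 5.62% for SG-like, 1.3% for GL-like, 2.33% for LPC-like and 6.97% for ORS-like cells. Egfr and Erbb3 stayed below that size in at least 1 library. The highest class was the same in both libraries for 4 of the 8 genes (Erbb4, Btc, Tgfa and Hbegf), and for Egfr, Erbb2, Erbb3 and Areg the 2 highest classes changed places.

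**Figure D3:**
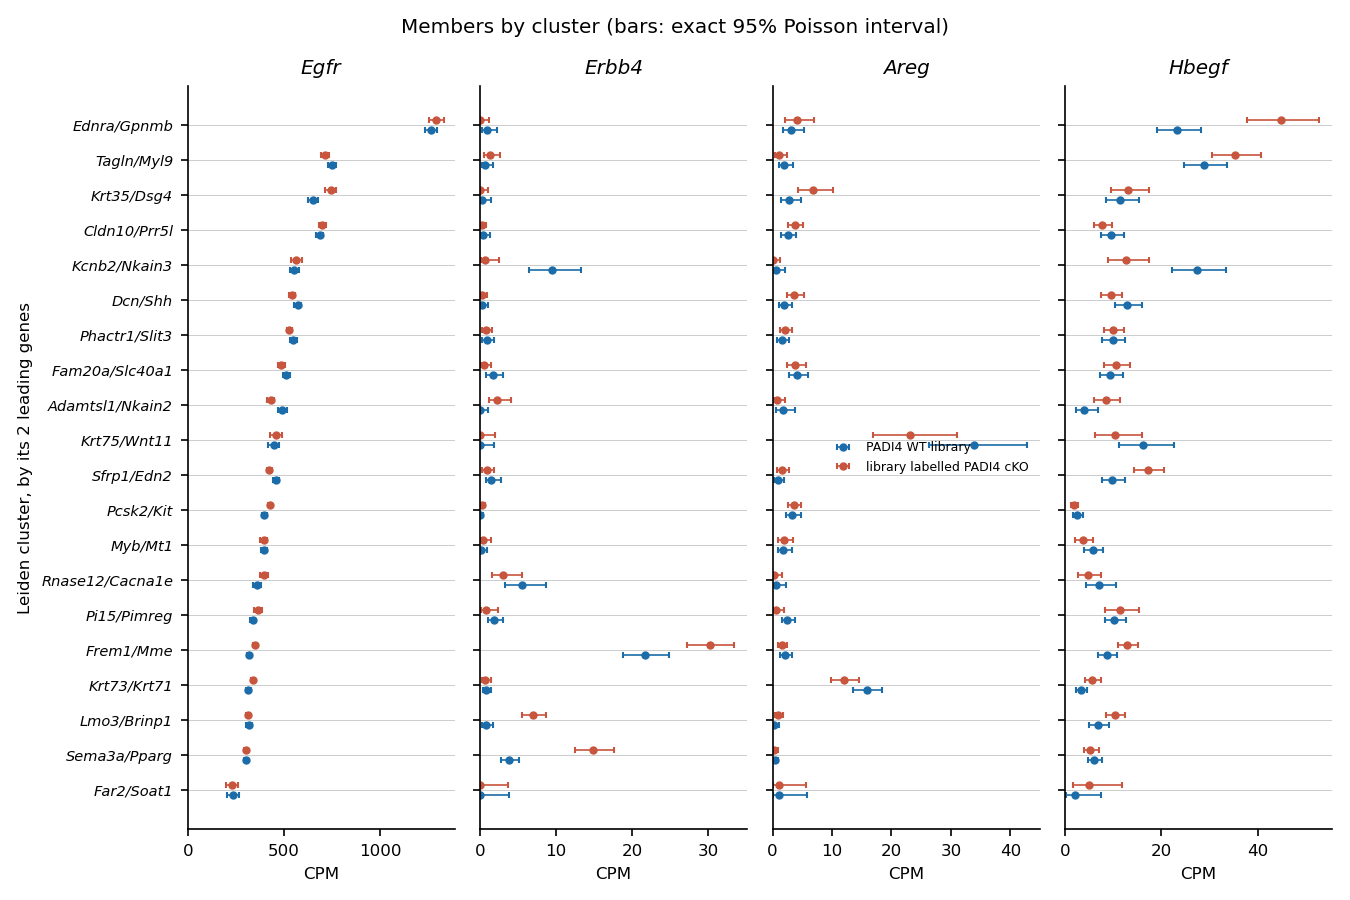
Levels of Egfr, Erbb4, Areg and Hbegf (CPM, linear axes from 0) in the 20 of 25 Leiden clusters with at least 50 cells in each library, ordered by Egfr and labelled by the 2 leading genes, with bars for the exact 95% Poisson interval. Egfr reached 1266 and 1293 CPM in the cluster led by Ednra and Gpnmb, Erbb4 21.6 and 30.2 CPM in that led by Frem1 and Mme, and Areg 33.8 and 23.2 CPM in that led by Krt75 and Wnt11.

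The libraries were then compared over all epithelial cells, as the log2 ratio of the cKO-labelled to the WT level in CPM. Egfr did not differ beyond counting error, with 467 and 469 CPM and a log2 ratio of 0.0048 (-0.01 to 0.02). Erbb2 was at 31.6 and 27.4 CPM (log2 ratio -0.20, -0.27 to -0.14) and Erbb3 at 42.2 and 37.1 CPM (-0.19, -0.24 to -0.13). Both were lower in the cKO-labelled library beyond counting error. Erbb4 was higher there, at 3.06 and 5.08 CPM, with a log2 ratio of 0.73 (0.55 to 0.92). Among the 7 genes with at least 100 UMIs it was the only one past 0.5 in size, above which 1.62% of 14947 genes lay, and 3.78% lay below -0.5. Areg stood at 3.64 and 3.16 CPM (-0.20, -0.40 to -0.01), Tgfa at 4.08 and 4.56 CPM (0.16, -0.01 to 0.33) and Hbegf at 10.1 and 10.7 CPM (0.08, -0.03 to 0.19). For Btc, with 68 UMIs in all, the log2 ratio was -0.79 (-1.57 to -0.06). The median over all genes was -0.01. These pooled ratios also take in differences in class make-up. LPC-like cells held 4.49% of the WT UMIs and 6.32% of those of the cKO-labelled library, and IRS-like cells 5.24% and 4.37%. The part of class make-up in the ratios was not tested. In cells thinned to 2000 UMIs the ratios of Areg (0.16), Btc (1.06) and Tgfa (-0.19) turned their direction and that of Erbb4 was 1.08, and with empty-droplet UMIs subtracted Erbb4 was at 1.71.

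Sex and genotype cannot be told apart in the pooled values, so the ratios were also taken over the 2146 WT and 7327 PADI4 cKO cells with Xist and no Y-linked UMIs. Erbb3 turned its direction, with 32.1 CPM in the WT library and 37.1 CPM in the other (log2 ratio 0.21, 0.11 to 0.31). Within the WT library, Erbb3 stood at 45.3 CPM in the cells with Y-linked UMIs only and 32.1 CPM in the cells with Xist only. Erbb4 split further within that library than between the libraries as a whole, with 3.61 CPM in the former and 1.83 CPM in the latter cells (log2 ratio of Xist to Y-linked cells -0.97, -1.41 to -0.57). The same ratio was 0.55 (0.24 to 0.85) for Areg, -0.34 (-0.67 to -0.02) for Tgfa, 0.23 (0.04 to 0.41) for Hbegf and -0.10 (-0.13 to -0.07) for Egfr. Male and female cells come from different animals and were not matched by class. Sex, animal and class make-up therefore cannot be told apart in this split. Erbb4 remained higher in the cKO-labelled library, at 1.83 against 5.08 CPM and a log2 ratio of 1.46 (1.08 to 1.88), from 59 and 656 UMIs. LPC-like cells were 55 of these 2146 WT cells and 344 of the 7327 others, and their part in this ratio was not tested. Areg was at -0.51 (-0.79 to -0.22) and Tgfa at 0.45 (0.16 to 0.77), so that their ratios lay further from 0 than over all cells, whereas Hbegf was at -0.07 (-0.24 to 0.10). Erbb2 lay nearer to 0, at -0.13 (-0.23 to -0.02), and Egfr at 0.08 (0.05 to 0.10).

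**Figure D4:**
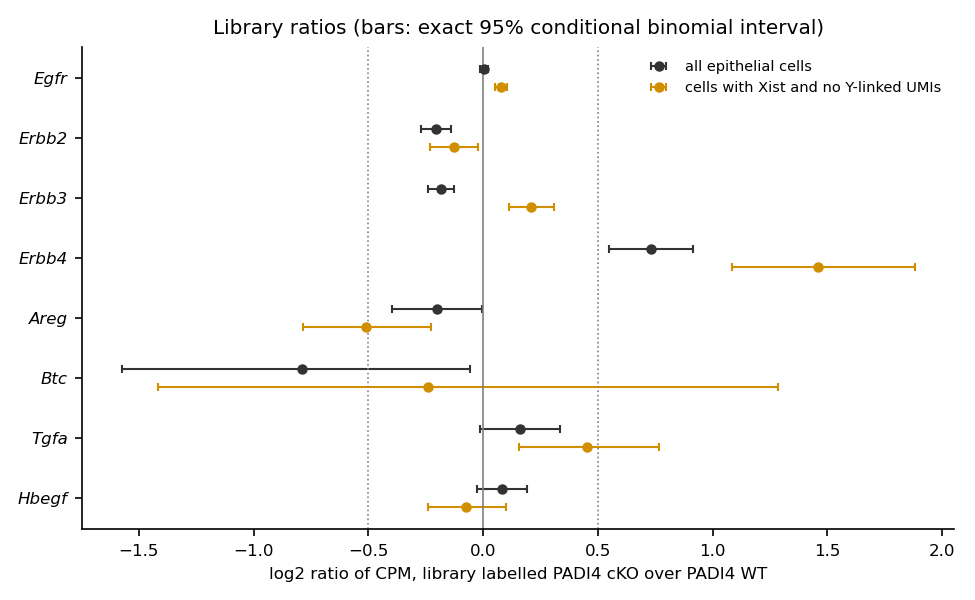
Log2 ratios of CPM between the cKO-labelled library and WT for the 8 genes, over all epithelial cells and over the cells with Xist and no Y-linked UMIs, with bars for the exact 95% conditional binomial interval and dotted lines at -0.5 and 0.5. Erbb4 lay at 0.73 and 1.46, and Erbb3 at -0.19 and 0.21, on opposite sides of 0.

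Within classes, 39 pairs of gene and class had at least 100 UMIs, of which 2 lay above 0.5 and 1 below -0.5. Of all genes with as many UMIs, the share above 0.5 was 2.03% in IRS-like, 2.56% in Cx-like, 2.1% in Med-like, 2.13% in CL-like, 4.04% in uHF-like, 9.6% in IFE-like, 4.22% in SG-like, 1.19% in GL-like, 2.23% in LPC-like and 1.95% in ORS-like cells. The share below -0.5 was 1.37%, 1.44%, 5.82%, 5.35%, 4.15%, 7.08%, 3.38%, 2.74%, 2.35% and 3.22% in the same order. Areg was lower in IRS-like cells of the cKO-labelled library (log2 ratio -0.63, -1.05 to -0.22). It was higher in GL-like cells (1.02, 0.44 to 1.67), at 2.57 and 5.28 CPM. Hbegf was higher in Cx-like cells (0.83, 0.37 to 1.31). The Egfr ratios were small, from -0.31 in Med-like cells to 0.20 in Cx-like cells. Over cells with Xist and no Y-linked UMIs, the Areg ratio was -1.07 in IRS-like cells and 2.33 in GL-like cells, the latter from 3 WT UMIs, and the Hbegf ratio in Cx-like cells was 0.92. Only IRS-like, Cx-like, Med-like, GL-like, LPC-like and ORS-like cells were compared in this way, with no 100-UMI minimum and no share over all genes. Further pairs lay past 0.5 with intervals that exclude 0, namely Erbb4 in LPC-like cells (0.81, 0.20 to 1.55), Erbb3 in IRS-like cells (0.52, 0.17 to 0.90), Areg in Med-like cells (-1.41, -2.62 to -0.03) and Hbegf in LPC-like cells (1.39, 0.26 to 3.18). Their WT counts were 21, 76, 9 and 5 UMIs, in 55 LPC-like, 95 IRS-like and 56 Med-like cells. Erbb4 in ORS-like cells with Xist and no Y-linked UMIs had 0 UMIs in 291 WT cells and 33 in 1184 cells of the cKO-labelled library. Over all ORS-like cells it had 53 UMIs in the WT library, from 11 cells, and 33 in the other. Over the cells with Xist and no Y-linked UMIs, the Egfr ratio was -0.15 in Med-like and 0.21 in Cx-like cells, and in GL-like cells it turned from -0.10 to 0.11. Erbb4 stood at 0.41 (0.12 to 0.70) in LPC-like cells, its only gated class with at least 100 UMIs, and past 0.5 among the cells that passed no gate (1.17, 0.89 to 1.46), at 2.13 and 4.80 CPM, where 1.54% of all genes lay above 0.5 and 3.17% below -0.5. These cells were not split by cluster. Over all cells of a cluster, with or without a class, Erbb4 stood at 3.80 and 14.9 CPM in that led by Sema3a and Pparg. In that led by Lmo3 and Brinp1 it stood at 0.749 and 6.91 CPM. In the ORS-like cluster led by Kcnb2 and Nkain3 the level went the other way, with 9.43 and 0.703 CPM.

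Of a list of 50 other genes of the pathway, 49 had at least 100 UMIs, and 17 of them had a class at 2-fold or more in both libraries, against 26.9% of all genes. Over all epithelial cells 1 of the 49 lay above 0.5 and 1 below -0.5, against 1.62% and 3.78% of all genes. Among 7 further EGF family ligands, Nrg4, a neuregulin that binds ERBB4, was highest in SG-like cells at 38.6 and 54.9 CPM and had a log2 ratio of 0.53 (0.22 to 0.84) over all epithelial cells. Nrg2, another neuregulin, was lower in the cKO-labelled library (-1.29, -1.70 to -0.91), at 1.47 and 0.596 CPM, with 26 UMIs in WT Med-like cells and 2 in the other library. Of 4 shedding proteases and iRhoms, Adam10, which cuts betacellulin precursors, had the highest class level, at 199 and 227 CPM in uHF-like cells, and 0 lay past 0.5 in either direction. Of 17 adaptors and effectors, the GTPase gene Hras reached 527 and 534 CPM in CL-like cells, and 0 lay past 0.5. Of 14 negative regulators, 7 had such a class, led by Lrig1, which restrains EGF receptors, with 846 and 951 CPM in uHF-like and 36.0 and 24.3 CPM in GL-like cells. Lrig1 was thus low in GL-like cells, where Egfr was high by the marker gates. Egfr was not high in the Leiden clusters named GL-like, which leave out unnamed clusters with many GL-like cells and more Egfr. Of 8 response genes, Fos, an immediate early gene that also responds to cell dissociation, reached 349 and 448 CPM in IFE-like cells with a log2 ratio of 0.45 (0.43 to 0.48) over all epithelial cells, short of 0.5.

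For each receptor and ligand, the 3 genes with the most similar levels over the 20 class levels were taken from 10738 genes with at least 500 UMIs in each library. Egfr was most like Diras2 (r = 0.95), Ednra (0.95) and Egfros (0.93). Egfros overlaps Egfr on the opposite strand of chromosome 11 (Egfr at 16752203 to 16918158), and reads of this pair may not be fully told apart. Erbb2 was most like Emp2 (0.94), Trim16 (0.94) and Mapkapk3 (0.94), and Erbb3 like AW011738 (0.92), Mapkapk3 (0.92) and Cited4 (0.91). Mapkapk3 was named for both. Erbb4 came closest to Fam13a (0.87), Plod1 (0.86) and Macrod2 (0.84), Areg to Ebp (0.86), Mycbp (0.85) and Uba1 (0.85), Tgfa to Gm15581 (0.82), Tapbp (0.81) and Heg1 (0.80), and Hbegf to Osbpl3 (0.89), Tspan9 (0.86) and Tnfrsf12a (0.84). For Btc, the values for Lsr (0.80), Abhd6 (0.79) and Epcam (0.78) rest on 68 UMIs.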

How the data were processed

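The authors deposited unnormalized UMI counts for every gene and every droplet, empty ones included, which Cell Ranger 7.1.0 (file header) wrote for Chromium 3′ v3.1 libraries. The submitters' processing notes name mm10. The libraries held 143938990 (WT) and 143945294 UMIs. As in the study, a barcode was kept if it held between 2000 and 60000 UMIs and between 1000 and 8000 genes, no more than 20% mitochondrial or 1% hemoglobin UMIs, and a ribosomal share from the 5th to the 99th percentile. CellBender and Harmony were not run. Cells were gated by the mean depth-adjusted marker residual, at 0.5 for differentiated and 0.4 for progenitor classes, with a margin of 0.2. Doublets were kept, except in an alternative. The automatic Scrublet threshold called 1 WT cell, so the lower threshold of the 2 libraries was used for both and called 296 cells in each. Levels were summed UMIs per 1000000 with exact Poisson intervals. Ratios had 0.5 UMI added to each sum and exact conditional binomial intervals, and were tested on simulated data. Leiden clustering (resolution 1.0, 1000 variable genes, 50 components, 15 neighbors) left out the receptors, ligands, pathway and Padi genes.

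The receptors, ligands, markers and lists were chosen with earlier results of these data known. Named genes were the 8 receptors and ligands, Padi4, pathway genes past 0.5 over all epithelial cells or with the highest class level of their role, and the 3 most similar non-marker genes of each. Clusters were singled out after their levels were seen. Alternatives were other gates, Leiden classes, doublet removal, thinning, empty-droplet subtraction, cells with Xist only and other UMI minimums. Positions are from GENCODE vM21. Python 3.11.15, scanpy 1.11.5, numpy 2.4.6, scipy 1.17.1 and igraph 0.11.9 were used.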

Additional observations from a re-analysis of the deposited data

Results flagged for a closer look

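Areg in GL-like cells lay below the other epithelial cells in the WT library (2.57 against 3.75 CPM) and above them in the cKO-labelled library (5.28 against 2.86 CPM). Its ratio between the libraries was -0.63 on the log2 scale in IRS-like cells and 1.02 in GL-like cells, on opposite sides of 0. Erbb4 in IFE-like cells was at 7.29 CPM in the WT library, above the 2.98 CPM of the other epithelial cells, and at 0.0 CPM in the cKO-labelled library, which allows up to 3.04 CPM and stands against 5.11 CPM elsewhere. For Egfr, the log2 ratio between the libraries was 0.11 in IRS-like and 0.20 in Cx-like cells, but -0.31 in Med-like, -0.10 in GL-like and -0.061 in ORS-like cells. None of these differences between classes or libraries was tested, since each library stands alone.

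Droplets with fewer than 100 UMIs were used only for the free-RNA limits and the empty-droplet subtraction. In them, Erbb4 was found at 26.3 CPM in the WT library (160 UMIs) and 26.3 CPM in the other (203 UMIs). This was well over its level in the epithelial cells (3.06 and 5.08 CPM). Btc was found there at 1.31 and 0.778 CPM, from 8 and 6 UMIs, against 0.337 and 0.193 CPM in the cells.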

How the results depend on the processing

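No paired analysis was possible because each genotype has 1 library, and for the same reason no replicate could be left out. Of 88 library ratios under alternatives, 74 stayed within the counting interval of the value given. Ratios of the top class over the other epithelial cells were averaged over the libraries. Of 72, 68 stayed within the span from the lower to the upper limit of both libraries' intervals, a wider range than either interval. In CL-like cells this span was 0.05 to 3.69 for Areg and -0.59 to 4.56 for Btc. The stricter gate could not move a library ratio, since these run over all epithelial cells, which it left unchanged. Leiden classes changed only which cells were left out as non-epithelial, and centring on the median of all genes moved every ratio alike. The count of 74 thus includes ratios that had little or no room to move. In cells with Xist and no Y-linked UMIs, the log2 library ratio of Erbb3 reversed to 0.21, and those of Egfr, Erbb2, Erbb4, Areg, Tgfa and Hbegf moved to 0.077, -0.13, 1.46, -0.51, 0.45 and -0.073. In cells thinned to 2000 UMIs, which leaves 44 and 45 UMIs of Areg and 5 and 10 of Btc, Areg reversed to 0.16 and Btc to 1.06, while Erbb2, Erbb4, Tgfa and Hbegf moved to -0.12, 1.08, -0.19 and 0.33. The ratio of IRS-like over other cells for Erbb3 moved to 0.55 and that of LPC-like cells for Erbb4 to 4.22. Subtracting empty-droplet UMIs moved the Erbb4 library ratio to 1.71 and its LPC-like ratio to 8.57, a size set by the 0.5 UMI added where nothing was left in the other cells. With Leiden classes the latter was 2.87, and Cx-like, Med-like, IFE-like and CL-like classes of at least 50 cells a library could not be formed. Genes with the same highest class in both libraries numbered 2 after thinning in place of 4. With at least 50 or 500 UMIs per gene, 410 or 84 genes lay above 0.5 in place of 242, and 833 or 219 below -0.5 in place of 565, since more or fewer genes were compared. The cause of the other shifts was not tested. Genes with few UMIs, Btc above all, are limited by depth.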
